A study of Equus caballus with 20 samples.

Results

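Calmodulin, calcium/calmodulin-dependent protein kinase II (CaM kinase II) and calcineurin were followed as 9 genes in horse muscle, chosen by gene symbol whatever its case: Calm2, Calm3, Camk2a, Camk2b, Camk2d, Camk2g, Ppp3ca, Ppp3cb and Ppp3r1. All 9 were on the array, among 12018 gene symbols, with 12 of its 24493 probes, since Calm3, Camk2a and Ppp3cb had 2 probes each and the other genes 1. Recurrent exertional rhabdomyolysis (RER) is a disorder in which muscle fibres of the horse break down after exercise. The affected horses were 5 French Trotters with RER and high activity of muscle enzymes in plasma, and their gluteus medius (hindquarter) and longissimus lumborum (back) were biopsied. Each RER sample was hybridised with the RNA of 10 healthy French Trotters pooled for the same muscle, on 2 arrays with the dyes Cy3 and Cy5 exchanged, which gave 20 arrays. Ages and exercise before the biopsy were not given in the sources used here, and no drug or genetic change was named.

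Calmodulin is a small protein that binds calcium and then attaches to and switches many other proteins. CaM kinase II is a ring of kinase subunits that calcium-loaded calmodulin activates and that phosphorylates itself, which prolongs its activity after the calcium signal. Calcineurin is a phosphatase made of a catalytic A subunit and a calcium-binding B subunit. Once calmodulin binds it, it dephosphorylates NFAT transcription factors, and in muscle it is known for sustaining genes of slow fibres. In skeletal muscle these proteins sit downstream of the calcium released at each contraction.

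Every value is a log2 ratio of an RER horse over the control pool, the mean of the horse's pair of dye-swapped arrays, each array centred on its median. A value of 0 is a gene at the pool's level, and ratios hold no level of the gene itself. The labels name the dye of each RNA but not which way the ratio was taken. It is read here as RER over pool on all arrays, which is not settled. With every sign turned, the sizes stay and the counts above and below 0 change places. If the ratio was instead taken by dye, as Cy5 over Cy3, the mean of a pair would not measure RER against pool. The Cy5 minus Cy3 gap divided by 2 would then do so, at -0.031 for Calm2 and 0.23 for Ppp3r1 in gluteus. That reading was not tested. Arrays of a single dye against the same pool correlated as low as -0.341 (gluteus horses 2 and 4). The arrays fell into 10 with at least 22032 measured probes (gluteus horses 1, 2 and 3, longissimus horses 1 and 2) and 10 with at most 17708. The 2 arrays of a pair correlated below 0 in gluteus horses 2 and 3 and longissimus horses 1 and 2, and above 0 in the other 6 pairs. The spread over all features was widest in longissimus horse 4, with an SD of 0.868 on the log2 scale. How well each probe matches horse RNA was not tested, and because the healthy horses were pooled to 1 sample per muscle, their own spread enters no test.

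None of the 9 genes differed from the control pool by the test across all features. Benjamini-Hochberg adjusted p-values under 0.05 were found for 0 of the 9 in gluteus, where 0% of the 10224 features tested had one, and for 0 of the 9 in longissimus (0% of features). The same held for the gluteus minus longissimus difference (0 of 9 and 0% of features) and for the mean of both muscles (0 of 9 and 0% of 10112 features). In gluteus 8 of the 9 genes had a mean below 0, as had 53.9% of all features, and their median log2 ratio was -0.087 against -0.0096 over all features. In longissimus 5 of the 9 were below 0 (51.1% of features), with a median of -0.031 against -0.0036. For the mean of both muscles 7 of 9 lay below 0 (54.9% of features), with a median of -0.073 against -0.010. With the ratio read the other way, those counts would be 8, 5 and 7 genes above 0. They also depended on the orientation of single arrays: with the Cy3 array turned round in the 4 pairs that correlated below 0, 5 of 9 genes lay below 0 in gluteus, 3 of 9 in longissimus and 4 of 9 in the mean of both muscles. In whole biopsies, fewer cells of a type and less RNA per cell cannot be told apart.

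**Figure D1:**
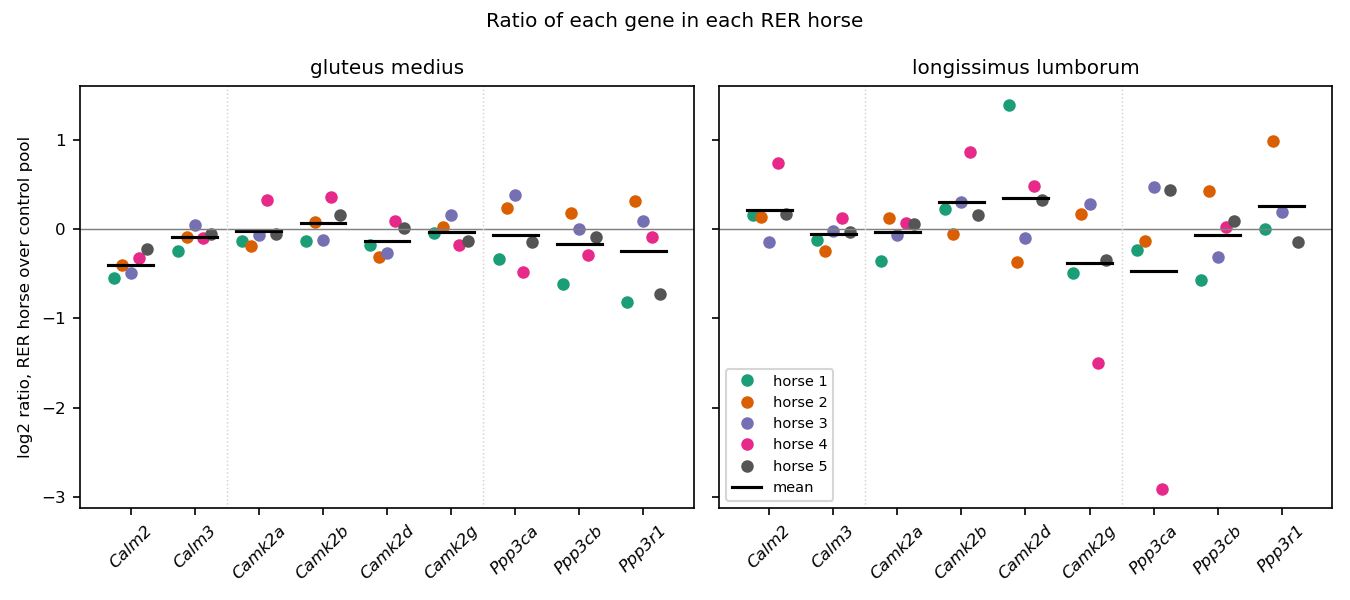
Log2 ratio of each RER horse over the control pool (vertical axis) for the 9 genes in gluteus medius (left) and longissimus lumborum (right); each point is 1 horse, the mean of 2 dye-swapped arrays, and each bar the mean of the horses. All 5 gluteus points of Calm2 lie below 0, and the lowest point is Ppp3ca in longissimus horse 4 at -2.91.

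Calm2 had the smallest p of the 9 genes in gluteus and in the difference between muscles. It is a calmodulin gene, 1 of several genes of mammals that encode the same calmodulin protein. In gluteus its log2 ratios were -0.54, -0.41, -0.49, -0.33 and -0.22 in RER horses 1 to 5. The gene lay below the pool in 5 of 5 horses, as did 4.24% of all features. It was also below on 10 of 10 arrays, both dyes included, as were 0.152% of the 8554 probes measured on all 10 gluteus arrays. Its mean was -0.40 ± 0.11 (SE, n = 5), a ratio of 0.759, with a 95% confidence interval of -0.64 to -0.16 that is not adjusted for the number of features. Here and below, the SE and interval of a muscle's mean rest on a single spread per feature, estimated over both muscles. Its rank by p among all features was 10, and limma's adjusted p was 1. The exact two-sided sign-flip permutation test over the 5 horses gave p = 0.0625, the smallest that 32 sign patterns allow.

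The arrays gave Calm2 in gluteus similar means in both dyes, -0.37 with RER RNA in Cy3 and -0.43 in Cy5. Single arrays ranged more widely, with horse 3 at -0.86 in Cy3 and -0.12 in Cy5. The 3 horses on densely measured arrays averaged -0.48 and the other 2 averaged -0.28. When the Cy3 array was turned round in pairs that correlated below 0, the gluteus mean was -0.20. Left out in turn, no horse changed its sign, and without horse 4 it was -0.42.

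In longissimus, Calm2 was at 0.16, 0.14, -0.14, 0.75 and 0.17 in RER horses 1 to 5. Horse 3 alone lay below the pool, and horse 4 stood highest. The mean was 0.22 ± 0.11 (SE, n = 5, limma adjusted p = 0.825), and without horse 4 it was 0.083. The SD of the horses was 0.32, against 0.13 in gluteus. The arrays with RER RNA in Cy3 averaged 0.028 and those with it in Cy5 averaged 0.40.

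The gluteus ratio of Calm2 was below the longissimus ratio in 5 of 5 horses, as for 4.93% of all features. The fitted difference was -0.61 ± 0.15 (SE, 95% interval -0.96 to -0.27, limma adjusted p = 0.99966). Like the other fitted differences, it is an unpaired contrast without a term for the horse. The SD of the 5 within-horse differences was 0.29. The highest gluteus horse, at -0.22, was below the lowest longissimus horse, at -0.14, and 0.142% of the 6328 features with all 10 values were parted in this direction. Its rank by p among all features was 4. The difference was -0.50 without horse 4, and also -0.50 with the negative pairs turned.

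Calm3, a second calmodulin gene, was close to the pool. Its gluteus ratios were -0.24, -0.09, 0.05, -0.10 and -0.06 in RER horses 1 to 5, with a mean of -0.087 ± 0.072 (SE; 95% interval -0.24 to 0.071). In longissimus they were -0.12, -0.25, -0.02, 0.12 and -0.03, with a mean of -0.059 ± 0.072 (95% interval -0.22 to 0.099). The limma adjusted p was 1 in gluteus and 0.860 in longissimus. Both muscles had 4 of 5 horses below 0.

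The Calm3 probes gave different pictures in gluteus. Probe 1 averaged 0.071 ± 0.18 and probe 2 averaged -0.25 ± 0.19 (SD, n = 5 horses each). Probe 2 was below 0 in 5 of 5 horses, as were 4.24% of all features with their probes averaged. In longissimus both probes had dye means of opposite sign: probe 1 averaged -0.45 in Cy3 and 0.36 in Cy5, and probe 2 averaged 0.24 in Cy3 and -0.39 in Cy5. For probe 2, the arrays of all 5 longissimus pairs had opposite signs. For probe 1, 3 of 5 did.

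CaM kinase II is encoded by genes for alpha, beta, delta and gamma subunits, and 0 of 4 passed the test in either muscle. Camk2a, the alpha subunit best known from neurons, was the closest of the kinase genes to the pool across both muscles. In gluteus it was at -0.13, -0.19, -0.07, 0.33 and -0.05 in RER horses 1 to 5, with a mean of -0.023 ± 0.094 (SE; 95% interval -0.23 to 0.18). Horse 4 stood apart, above the pool in both probes, at 0.19 in probe 1 and 0.47 in probe 2. In longissimus Camk2a was at -0.35, 0.13, -0.06, 0.07 and 0.06, with a mean of -0.031 ± 0.094 (95% interval -0.24 to 0.18). Horse 4 rests on probe 1 alone there, and the low value of horse 1 came from probe 2 at -0.82, with probe 1 at 0.11. Without horse 1 the mean was 0.0041 in gluteus and 0.050 in longissimus. The limma adjusted p was 1 in gluteus and 0.954 in longissimus.

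Camk2b, the beta subunit, also known from neurons and with a form in the sarcoplasmic reticulum of muscle, had the smallest p of the 9 genes in longissimus. Its ratios there were 0.23, -0.06, 0.31, 0.86 and 0.15 in RER horses 1 to 5. Horse 2 alone was below the pool, and horse 4 stood highest. The mean was 0.30 ± 0.12 (SE, n = 5), a ratio of 1.23 with a 95% interval of 0.031 to 0.57, and limma's adjusted p was 0.825. That interval rests on the spread of both muscles together, and the SD of the horses was 0.34 in longissimus and 0.20 in gluteus. The exact two-sided sign-flip permutation test over the 5 longissimus horses gave p = 0.125. Without horse 4 the mean was 0.16. The arrays with RER RNA in Cy3 averaged 0.054 and those in Cy5 averaged 0.55, with opposite signs in horses 1 and 2. The 2 densely measured horses averaged 0.085 and the other 3 averaged 0.44.

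In gluteus, Camk2b was at -0.13, 0.08, -0.12, 0.36 and 0.16 in RER horses 1 to 5, which lay on both sides of the pool. The mean was 0.068 ± 0.12 (SE; limma adjusted p = 1). Horse 4 again stood highest, and without it the mean was -0.0044. The gluteus minus longissimus difference was -0.23 ± 0.17 (limma adjusted p = 0.99966), and the ranges of the muscles overlapped.

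Camk2d, the delta subunit found in many tissues, had its highest value in longissimus horse 1. The longissimus ratios were 1.39, -0.37, -0.10, 0.48 and 0.33 in RER horses 1 to 5. Horse 1 was high on both of its arrays, at 1.12 in Cy3 and 1.66 in Cy5, and 99.3% of the features of that horse were at or below it. The mean was 0.35 ± 0.20 (SE; 95% interval -0.090 to 0.78; limma adjusted p = 0.825), and without horse 1 it was 0.084. In gluteus the ratios were -0.18, -0.31, -0.27, 0.09 and 0.01, with a mean of -0.13 ± 0.20 (adjusted p = 1). The gluteus minus longissimus difference was -0.48 ± 0.28, with gluteus lower in 4 of 5 horses, and -0.20 without horse 1.

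Camk2g, the gamma subunit, also found in many tissues, lay farthest from the pool in longissimus horse 4. The longissimus ratios were -0.49, 0.17, 0.28, -1.50 and -0.34 in RER horses 1 to 5. Horse 4 was low on both arrays, at -1.64 in Cy3 and -1.36 in Cy5. The mean was -0.37 ± 0.20 (SE; 95% interval -0.82 to 0.077; limma adjusted p = 0.825), and without horse 4 it was -0.092. In gluteus the ratios were -0.04, 0.03, 0.15, -0.18 and -0.14, with a mean of -0.035 ± 0.20 (adjusted p = 1). The gluteus arrays averaged -0.21 with RER RNA in Cy3 and 0.14 with it in Cy5, and the longissimus arrays -0.68 and -0.073. The gluteus horses were within 0.18 of the pool on the log2 scale, with an SD of 0.13 against 0.71 in longissimus. Because the fit shares the spread between muscles, the SE of 0.20 measures neither muscle alone.

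Longissimus horse 4 was also the sample in which most genes lay far from the pool. Of its 7695 features, 41.6% were beyond 0.5 in size, against 2.52% to 21.2% in the other 9 samples. Its skeletal muscle markers had a median of -1.29, with 8 of 10 measured markers below 0, against medians of -0.12 to 0.094 in the other longissimus horses. Gluteus horse 4 had 6 of 6 fibroblast markers above 0, with a median of 2.38, against -0.60 to 0.24 in the other gluteus horses. The part of these markers in the values of the 9 genes was not tested. The macrophage and leukocyte medians lay between -0.10 and 0.18 in the 10 samples.

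**Figure D2:**
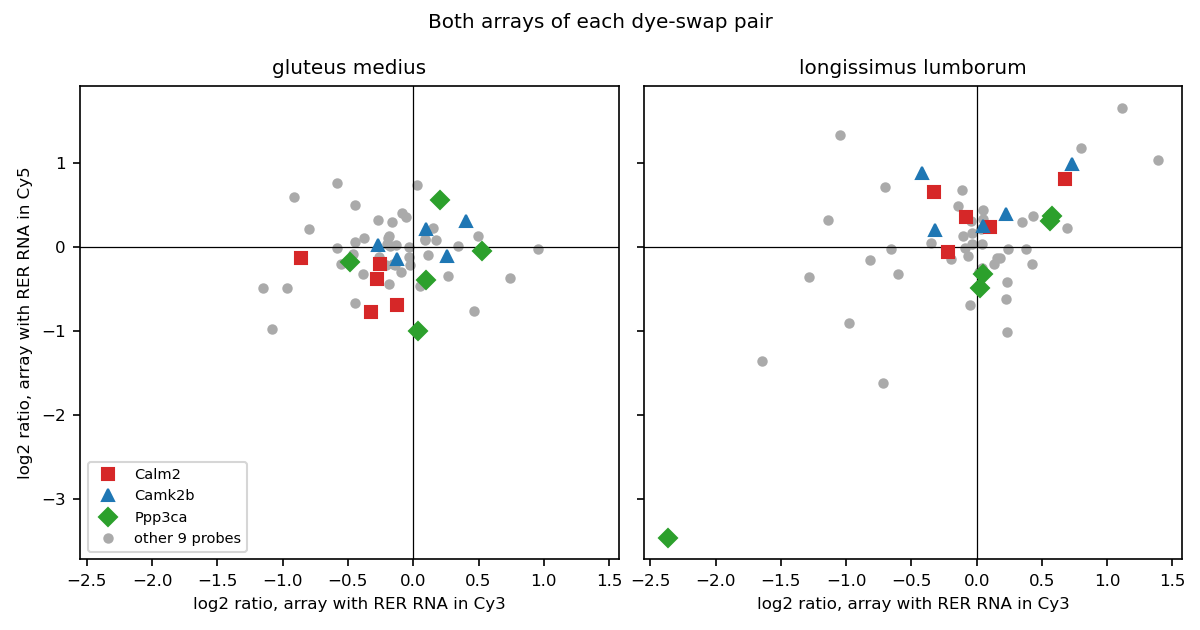
Each point is 1 probe in 1 horse, with the log2 ratio on the array with RER RNA in Cy3 (horizontal) and in Cy5 (vertical), in gluteus (left) and longissimus (right); red squares are Calm2, blue triangles Camk2b, green diamonds Ppp3ca and grey points the other 9 probes. The Calm2 squares in gluteus all lie at the lower left, where both arrays are below 0, and the Ppp3ca point at the far lower left is longissimus horse 4.

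Agreement between the arrays of a pair was limited for these probes as for the array as a whole. In gluteus both arrays shared a sign in 33 of 60 probe and horse pairs of the 9 genes (55%), and 50.7% of the pairs of all probes had. In longissimus the count was 31 of 58 (53.4%), with 50.1% over all probes. Calm2 in gluteus (5 of 5 pairs) and Ppp3cb probe 1 in longissimus (5 of 5) shared it throughout, while Calm3 probe 2 and Camk2a probe 1 in longissimus did so in 0 of 5.

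In the mean of both arrays, the calcineurin genes shared a sign within each gluteus horse, but that sign differed between horses. Ppp3ca, Ppp3cb and Ppp3r1 were all 3 below the pool in gluteus horses 1, 4 and 5 and all 3 above it in horses 2 and 3. The single arrays often disagreed, sharing a sign in 2 of 5 gluteus pairs for Ppp3ca and 3 of 5 for Ppp3r1. For Ppp3cb they shared it in 3 of 5 pairs with probe 1 and 4 of 5 with probe 2. Ppp3r1 in horse 3 was at -0.58 in Cy3 and 0.77 in Cy5. Ppp3cb in horse 3 was only just above (0.0015), as the mean of probe 1 at -0.16 and probe 2 at 0.16. How often 3 features share signs like this over all features was not counted. None of the 3 passed the test in either muscle. Horses 2 and 3 are also those whose gluteus arrays correlated below 0 within their pairs, and whose fibroblast markers were low (medians -0.60 and -0.49, 6 of 6 below 0 in each); the part of either in the split was not tested.

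Ppp3ca, which encodes the alpha form of the catalytic subunit, had the largest distance from the pool of any of the 9 genes. In longissimus it was at -0.23, -0.13, 0.47, -2.91 and 0.44 in RER horses 1 to 5. The value of horse 4 was low on both arrays, at -2.36 in Cy3 and -3.46 in Cy5, and 1.36% of the features of that horse were at or below it. The mean was -0.47 ± 0.40 (SE; 95% interval -1.35 to 0.41; limma adjusted p = 0.832). Without horse 4 the mean was 0.14, so that 1 horse set its sign. In gluteus Ppp3ca was at -0.33, 0.24, 0.39, -0.48 and -0.15, with a mean of -0.067 ± 0.40 (adjusted p = 1). That mean was 0.037 without horse 4 and 0.098 over the 3 densely measured horses, so its sign turned there as well. The gluteus arrays averaged 0.076 with RER RNA in Cy3 and -0.21 with it in Cy5. The SD of the horses was 0.37 in gluteus and 1.40 in longissimus. The SE of 0.40 rests on both muscles together and measures neither spread alone.

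Ppp3cb, the beta form of the catalytic subunit, had a pair of probes. In gluteus its mean over both was -0.61, 0.18, 0.0015, -0.29 and -0.08 in RER horses 1 to 5, which averaged -0.16 ± 0.14 (SE; 95% interval -0.48 to 0.16; limma adjusted p = 1). In longissimus it was -0.57, 0.43, -0.31, 0.02 and 0.09, which averaged -0.068 ± 0.14 (adjusted p = 0.935). Horse 1 was the lowest in each muscle, and without it the means were -0.047 in gluteus and 0.057 in longissimus. That came mainly from probe 1, at -1.03 in gluteus and -0.94 in longissimus, while probe 2 was at -0.20 in each. All 4 arrays of horse 1 gave probe 1 between -1.08 and -0.91. The value near 0 in longissimus horse 4 is the mean of probe 1 at 1.21 and probe 2 at -1.17, each the same way on both arrays, so the probes disagree there on the direction.

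Ppp3r1 encodes the calcium-binding B subunit. In gluteus it was at -0.82, 0.32, 0.09, -0.08 and -0.73 in RER horses 1 to 5. Horses 1 and 5 were low on both of their arrays. The gluteus mean was -0.24 ± 0.20 (SE; 95% interval -0.69 to 0.20; limma adjusted p = 1), and it was -0.10 without horse 1. The gluteus arrays averaged -0.48 with RER RNA in Cy3 and -0.012 with it in Cy5. In longissimus Ppp3r1 was at 0.0078, 0.99, 0.19 and -0.15 in horses 1, 2, 3 and 5. Horse 4 had no longissimus value on either array, while its gluteus value stayed in the fit. Horse 2 was high on both arrays, at 0.80 in Cy3 and 1.19 in Cy5. The longissimus mean was 0.26 ± 0.22 (SE, n = 4; adjusted p = 0.834), and without horse 2 it was 0.017. The arrays with RER RNA in Cy3 averaged -0.053 and those in Cy5 averaged 0.57, and the densely measured horses averaged 0.50, against 0.021 in the others. The gluteus ratio was lower than the longissimus ratio in 4 of 4 horses, and 4.93% of all features were lower in every measured horse. That share mixes features with different numbers of measured horses. The fitted difference was -0.50 ± 0.30 (95% interval -1.17 to 0.17, limma adjusted p = 0.99966), which includes gluteus horse 4. The 4 horses measured in both muscles averaged a difference of -0.54.

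**Figure D3:**
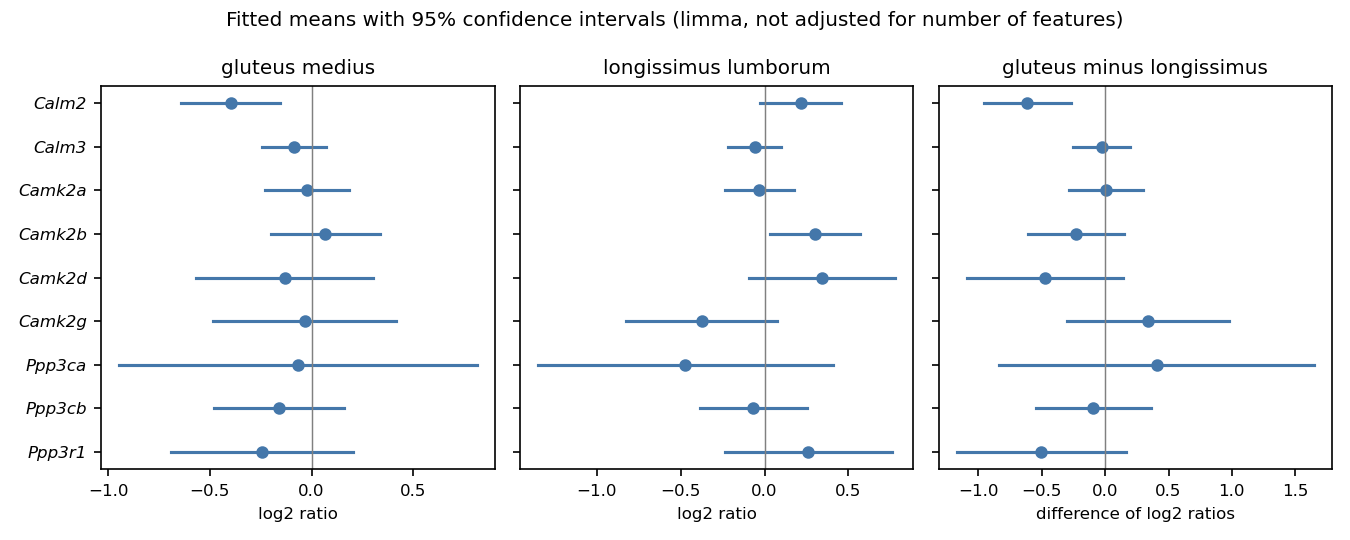
Fitted mean log2 ratios of RER over pool in gluteus (left) and longissimus (middle), and their gluteus minus longissimus difference (right), for the 9 genes; points are limma estimates and bars their 95% confidence intervals, not adjusted for the number of features. The intervals of Calm2 in gluteus and in the difference and of Camk2b in longissimus leave out 0, and the interval of Ppp3ca is the widest. Each interval rests on a spread estimated over both muscles together.

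Across the 9 genes, the gluteus minus longissimus difference was below 0 for 6 (49.2% of all features), with a median of -0.092 against 0.0031 over all features. Before adjustment, p was under 0.05 for 1 of the 9 in gluteus (Calm2; 1.87% of features), for 1 of the 9 in longissimus (Camk2b; 4.24%), for 1 of the 9 in the difference (Calm2; 1.80%) and for 0 of the 9 in the mean of both muscles (1.95%). Ordered by gluteus ratio from the lowest, the genes ran Calm2, Ppp3r1, Ppp3cb, Camk2d, Calm3, Ppp3ca, Camk2g, Camk2a and Camk2b, and the 95% intervals of all neighbours in that order overlapped. In longissimus the order was Ppp3ca, Camk2g, Ppp3cb, Calm3, Camk2a, Calm2, Ppp3r1, Camk2b and Camk2d, again with overlapping neighbours. Horse 1 had 9 of 9 genes below the pool in gluteus and 5 of 9 in longissimus. Within a muscle these genes come from the same pair of arrays. The share of all features below 0 in horse 1 was not counted.

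**Figure D4:**
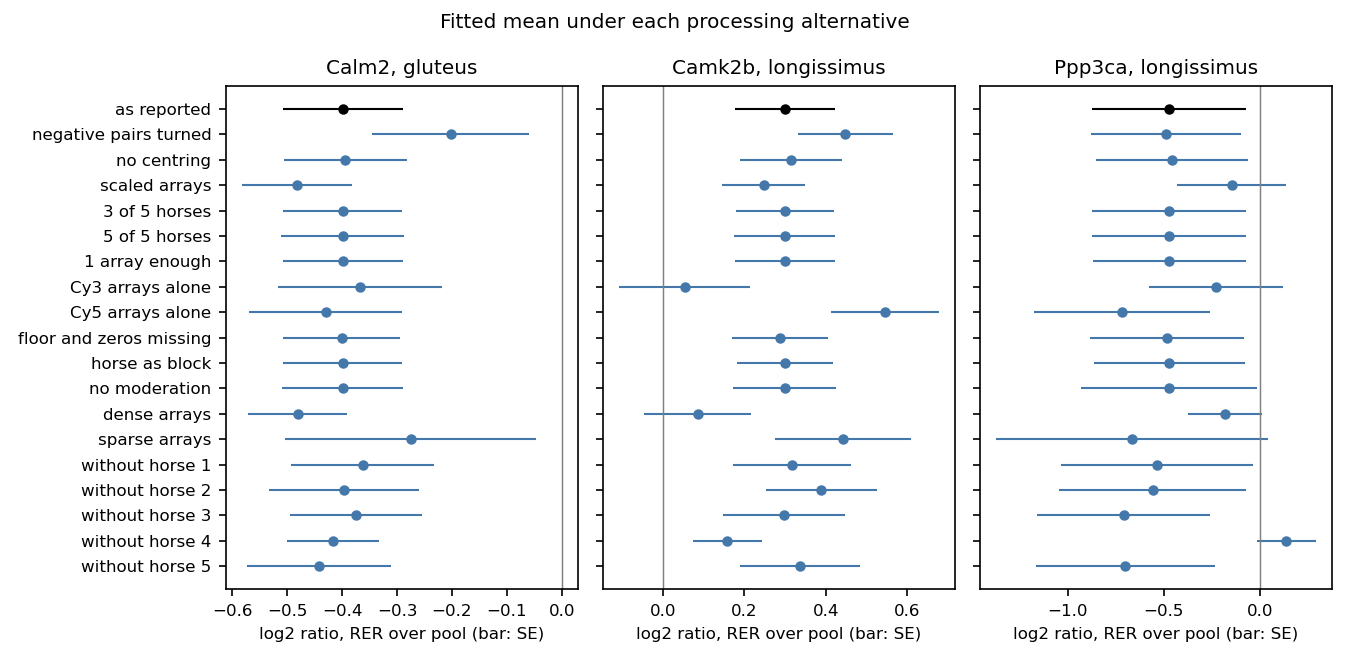
Fitted mean log2 ratio of RER over pool (horizontal axis, bars are SE) for Calm2 in gluteus (left), Camk2b in longissimus (middle) and Ppp3ca in longissimus (right), as reported (black) and under the processing alternatives (blue, down the page). Calm2 stays below 0 throughout, between -0.48 and -0.20, Camk2b stays above 0, and Ppp3ca lies above 0 only without horse 4.

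The wider calmodulin pathway was read from 8 lists with 102 genes, of which 89 were on the array and 59 were measured well enough to test. None of the 59 passed the test in either direction in gluteus, longissimus or the difference, as for 0% of all features. In gluteus 31 were above and 28 below 0 (median 0.015). In longissimus 22 were above and 37 below (median -0.032). In the difference 42 were above and 17 below (median 0.087, against 0.0031 over all features). Over all features, 53.9% lay below 0 in gluteus, 51.1% in longissimus and 49.2% in the difference. Up to 3 genes of each list and muscle are named by the smallest p, with limma adjusted p-values of 1 in gluteus and 0.825 or more in longissimus.

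Among other calmodulin-like and calcineurin genes, 1 of 5 and 1 of 2 were tested. The calmodulin-like gene Calml4 was at -0.027 ± 0.075 in gluteus and -0.049 ± 0.083 in longissimus (SE). Ppp3cc, the gamma catalytic subunit of calcineurin, was at 0.086 ± 0.10 in gluteus, with 4 of 4 horses above 0 (5.51% of all features in every measured horse). That share mixes features with 4 and 5 measured horses, and 4 values share a sign more easily than 5. In longissimus Ppp3cc was at -0.023 ± 0.090.

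Of 18 further kinases of this family or with calmodulin as a subunit, 12 were tested. In gluteus 8 were above and 4 below 0 (53.9% of all features below). In longissimus 7 were above and 5 below (51.1%). Camkk1, which phosphorylates other CaM kinases and AMP-activated kinase, averaged 0.38 ± 0.18 in gluteus, where horse 2 was at 1.36 and the other horses between -0.10 and 0.30. Phkb and Phka1, regulatory subunits of the phosphorylase kinase that starts glycogen breakdown, were at 0.28 ± 0.16 in gluteus (Phkb) and 0.19 ± 0.095 in longissimus (Phka1). Camk1d was at 0.14 ± 0.15 in gluteus. In longissimus the kinase-like gene Camkv was at -0.36 ± 0.17 and the death-associated kinase Dapk2 at -0.29 ± 0.18, with Camkv lowest in horse 4 at -1.13 and Dapk2 lowest in horse 1 at -1.15.

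Of 15 inhibitors and anchors of CaM kinase II and calcineurin, 7 were tested. In gluteus 4 were above and 3 below 0 (53.9% of all features below). In longissimus 1 was above and 6 below (51.1%). The calsarcins bind calcineurin at the Z-disc. Among them Myoz3 was at 0.21 ± 0.079 in gluteus, with 4 of 4 horses above 0 (5.51% of all features in every measured horse). In longissimus Myoz3 was at -0.11 ± 0.079, with 4 of 4 below (3.02%). Myoz1, a calsarcin of fast fibres, was at -0.37 ± 0.17 in gluteus and -0.13 ± 0.17 in longissimus. The anchoring protein Akap1 was at 0.16 ± 0.13 in gluteus, and Rcan3, of the regulators that bind calcineurin, was at -0.11 ± 0.18 in longissimus.

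The transcription factors and corepressors downstream, 13 of 22 tested, were split evenly, with 6 above and 7 below 0 in each muscle. Of all features, 53.9% were below 0 in gluteus and 51.1% in longissimus. The CREB coactivators Crtc2 and Crtc1, which calcineurin dephosphorylates, were at 0.13 ± 0.11 and 0.097 ± 0.089 in gluteus, Crtc1 above 0 in 5 of 5 horses (5.51% of all features). Foxk2, a forkhead factor, was at 0.065 ± 0.070 in gluteus and 0.11 ± 0.070 in longissimus. Mef2b and Mef2d, of the MEF2 family that drives muscle genes, were at -0.26 ± 0.18 and -0.27 ± 0.19 in longissimus, where Mef2d ranged between -0.84 and 0.70 over the horses.

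Of 6 proteins that bind and hold calmodulin, 3 were tested. Pcp4 was at 0.084 ± 0.11 in gluteus and -0.23 ± 0.096 in longissimus, there below 0 in 4 of 5 horses. Gap43, a protein of growing nerve endings, was at 0.13 ± 0.17 in gluteus and 0.093 ± 0.17 in longissimus. Marcks was at -0.041 ± 0.47 in gluteus and 0.36 ± 0.47 in longissimus. The gluteus horses of Marcks spread from -1.57 in horse 2 to 2.43 in horse 4, the horses with the lowest and the highest fibroblast median in that muscle; the part of those cells was not tested.

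Of 26 pumps, channels and enzymes regulated by calmodulin, 14 were tested. In gluteus 7 were above and 7 below 0 (53.9% of all features below). In longissimus 3 were above and 11 below (51.1%). Itpkc, a kinase of inositol trisphosphate that calcium and calmodulin activate, was at -0.44 ± 0.17 in longissimus, below 0 in 5 of 5 horses (3.02% of all features) with horse 4 at -1.44. Pde1b, a calmodulin-dependent phosphodiesterase, was at -0.098 ± 0.094 in gluteus, below 0 in 5 of 5 horses (4.24% of all features), and at -0.17 ± 0.094 in longissimus. The adenylate cyclase Adcy3 was at 0.21 ± 0.12 in gluteus and -0.19 ± 0.12 in longissimus, and the membrane skeleton protein Add1 at 0.12 ± 0.10 in gluteus.

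The 8 slow-fibre genes known to respond to calcineurin and NFAT were all tested. Each muscle had 3 above and 5 below 0, with medians of -0.049 in gluteus and -0.20 in longissimus. Of all features, 53.9% were below 0 in gluteus and 51.1% in longissimus. Myl3, a slow-fibre myosin light chain, was at -0.18 ± 0.11 in gluteus and -0.36 ± 0.11 in longissimus, there below 0 in 5 of 5 horses (3.02% of all features). The slow troponin genes Tnni1 and Tnnt1 were at 0.22 ± 0.13 and 0.41 ± 0.29 in gluteus, and Tnnc1 at -0.93 ± 0.51 in longissimus, where horse 4 was at -4.01. Atp2a2, the slow-fibre calcium pump of the sarcoplasmic reticulum, was at 0.46 ± 0.25 in longissimus, with horse 4 at 1.86. In that horse the slow-fibre genes therefore lay on both sides of the pool, 4 of 7 below it.

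The features most like the leading genes were ranked by Pearson correlation over the 10 horse and muscle values, among 3795 named features with all 10. For Calm2 they were Etf1 (0.921), Sumo2 (0.921) and Gng5 (0.921), a translation termination factor, a small ubiquitin-like modifier and a G protein gamma subunit. For Camk2b they were Csnk2a1 (0.943), Ifngr2 (0.938) and Fbxw11 (0.938), the catalytic subunit of casein kinase II, an interferon gamma receptor chain and a ubiquitin ligase subunit. With as few as 10 points from shared arrays and horses, 108 features reached 0.8 with Calm2 and 163 with Camk2b, so these are descriptions without a test.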

How the data were processed

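Muscle RNA of 5 RER horses was compared with the pool of 10 control horses on 20 arrays. The labels' protocols give TRIZOL extraction, 5 µg of RNA carrying amino-allyl groups for dye coupling, and a mean over each dye swap ahead of the statistics. The authors deposited log2 ratios between the channels, already normalized, and the scale was read from the values (lowest -6.6439 in 707 cells, array medians within 0.0444 of 0). The normalization, the scanner, any background correction and the reason for blank cells are not given in the sources used here.

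Arrays were centred on their median and dye-swap pairs averaged where both had a value. Gene symbols came from GEO's platform annotation, with 13692 probes carrying 1 symbol and 10801 none. Probes of a symbol, ignoring case, were averaged into 22819 features. Features needed values from 4 or more of the 5 horses in both muscles, which left 10224. Their ratios were set against 0 in limma (version 3.58.1, with statmod 1.5.0, under R 4.3.3), with muscle as the factor, moderated variances and Benjamini-Hochberg adjustment at 0.05. Each feature had a single spread estimated over both muscles, so its SE and interval do not measure the spread within 1 muscle. The mean of both muscles was fitted on per-horse means. The procedure was tested on simulated data. The number of arrays and horses limits the precision.

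The labels number the horses alike in both muscles, so the muscles pair by horse. The fitted differences did not use this pairing, except in the alternative with horse as block. As a check, each horse's deviations from the mean of its muscle were correlated between muscles, at 0.389 in horse 1, 0.141 in horse 2, -0.0886 in horse 3, 0.0135 in horse 4 and -0.00602 in horse 5. All 9 genes are named, with up to 3 genes of each pathway list and muscle by smallest p and the 3 features most correlated with the leading gene of each muscle. The genes, lists and tests were chosen with earlier results of these data known. Alternatives covered orientation, centring, scaling, missing values, dyes, single probes, horse as block, moderation, array density and leaving out each horse.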

Additional observations from a re-analysis of the deposited data

Results flagged for a closer look

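Among the 18 sets of horses of the 9 genes (9 genes in each of 2 muscles), 2 held a horse far from the others by Dixon's test at the 95% level, and chance gives about 1 in 20. Camk2a in gluteus had horse 4 at 0.33, with the other RER horses between -0.19 and -0.05. Ppp3ca in longissimus had horse 4 at -2.91, with the next lowest RER horse at -0.23 and the highest at 0.47.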

How the results depend on the processing

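The count of features called was 0 in gluteus, longissimus, their difference and the mean of both muscles, and it stayed at 0 with each horse left out in turn (range 0 to 0). With horse as a replicate block (consensus correlation 0.200), it was 0 in gluteus, longissimus and the paired difference. With the arrays of RER RNA in Cy3 alone, 1 feature was called in gluteus and 2 in longissimus. With those in Cy5 alone, 4 were called in gluteus, 90 in longissimus and 7 in the mean of both muscles. The sparsely measured arrays alone gave 1 in gluteus, 2 in longissimus and 1 in the mean. None was among the 9 genes. Chosen after their values were seen, the named features in the counts of up to 5 were Aqp3 (Cy3 alone, longissimus), Bmp8a, Psmb4 and Aqp3 (Cy5 alone, gluteus) and Pnma2 (sparse arrays, longissimus), and the others were probes without a symbol. Of the features called in Cy5 alone and measured in both dyes, 4 of 4 in gluteus and 83 of 87 in longissimus had the opposite sign in Cy3. Pcp4 in longissimus changed sign to 0.00759 in Cy3 alone and 0.0236 on the densely measured arrays; the cause was not tested. Over the alternatives, 600 of 658 values of the 9 genes kept their sign and 0 passed the threshold. Some alternatives cannot change a mean, such as leaving out moderation or requiring another number of horses. Their signs were fixed in advance, so the count overstates how stable the signs were. At an unadjusted p under 0.05, limma gave 191 features in gluteus, 433 in longissimus, 184 in the difference and 197 in the mean. Leaving out each horse, these counts ran from 138 to 542 in gluteus and from 135 to 480 in the difference, both highest without horse 4, and from 314 to 897 in longissimus and 103 to 523 in the mean, both highest without horse 2. With the negative pairs turned they were 139, 1656, 342 and 1322, with Cy3 arrays alone 577, 2338, 471 and 1432, and with Cy5 arrays alone 687, 2119, 426 and 2061 (gluteus, longissimus, difference and mean in turn). Limits are the 5 horses, the single pool per muscle, the unstated ratio direction and normalization, and probes untested on horse RNA.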
